A study of Zea mays with 36 samples.

Results

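Maize abp1 and BA1 were followed in microdissected shoot apical meristems of rgd2-R mutant and non-mutant seedlings, on every probe that the platform annotation names for either gene by symbol or synonym. They are 2 of the 766 genes that the annotation names on the array designs SAM1 and SAM3. Their 6 probes, of 35200 on both designs, were 4 abp1 probes and 1 BA1 probe on SAM1 and 1 abp1 probe on SAM3, and no SAM3 probe was named BA1. On SAM1 abp1 (gene 542232) had probes 7258, 7642, 5035 and 1790, and BA1 (gene 542186) had probe 4524, while the SAM3 probe of abp1 was 14861. Both genotypes grew in 1 controlled condition, and meristems were microdissected by laser when the seedlings were 14 days past germination. The rgd2-R allele had been introgressed into the inbred Mo17 for 5 generations, and the labels do not state the background of the non-mutant seedlings or how many apices a replicate pooled. RNA was amplified in 2 rounds before labelling. Each of the 6 biological replicates per design set RNA of both genotypes on 1 array, and each array was read 3 times at settings named low, mid and high. Replicates 1 to 3 carried rgd2-R in the Cy3 dye, and replicates 4 to 6 carried it in the Cy5 dye.

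abp1 encodes an auxin-binding protein that was purified from maize coleoptiles and carries a signal that retains most of it in the lumen of the endoplasmic reticulum. BA1, barren stalk1, encodes a basic helix-loop-helix protein needed to start axillary meristems, which form ear shoots, tassel branches and spikelets. Auxin transport sets where lateral organs and axillary meristems arise on the flank of a meristem, and BA1 acts downstream of it. The rgd2 gene encodes an argonaute of the trans-acting small RNA pathway, whose targets include auxin response factors. No sequence of the spotted clones was used here, so the stretch of the transcript that each probe covers is unknown.

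The meristem marker kn1 had signal of at least 1.5 times the local background in 97.2% of SAM1 channel readings. The 5 leaf primordium markers had it in 100% of them, and the 5 photosynthesis markers in 19.4 to 87.5% of them. Epidermis markers had it in 50 to 98.6% and vascular markers in 11.1 to 96.4%. Per reading, 48.24 to 82.88% of all SAM1 spots had it in Cy3 and 74.42 to 85.76% in Cy5. Per reading, the median signal of all SAM1 spots was 301 to 1948 in Cy3 and 101 to 554 in Cy5, and that of SAM3 spots 143 to 1847 and 46.5 to 1002. The log2 ratios of SAM1 replicates correlated at 0.114 to 0.386 over spots within a dye orientation and at -0.176 to 0.365 between orientations. On SAM3 the low and mid readings of replicate 3 ran opposite to its high reading (r = -0.911 and -0.909 across spots). Of 18 SAM3 readings, those 2 alone had a higher median signal in Cy5 than in Cy3 (375 against 143 and 505.5 against 287). In the high reading of replicate 3 the medians were 406 in Cy5 and 1243.5 in Cy3. Replicates 1 and 3 correlated at -0.544 over the mean of their readings and at 0.595 over the high reading alone. Replicate 2 correlated below 0 with replicates 1 (-0.242), 4 (-0.218) and 6 (-0.157), and at 0.017 with replicate 5. With replicate 3 it correlated at 0.305 over the mean of the readings and at -0.278 over the high reading alone. The direction of SAM3 values is therefore not settled. SAM3 values are as labelled unless the text says that the low and mid readings of replicate 3 were exchanged or replicate 2 turned. Exchanged means that the genotypes of the 2 dyes were swapped within each of those readings, which turns the sign of its ratio. Turned means the same for all readings of replicate 2, with its dye term kept unless stated. In bulk meristem RNA, fewer expressing cells and less RNA per cell cannot be told apart.

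No abp1 or BA1 probe differed between the genotypes at an adjusted p under 0.05. The lowest estimates were those of 2 abp1 probes on SAM1, 7258 and 7642, each below 0 in 5 of 6 replicates. The other 2 abp1 probes on SAM1, the abp1 probe on SAM3 and the BA1 probe gave estimates whose 95% intervals included 0. Ratios are given as the log2 of mutant over non-mutant signal, so that a negative value is a lower signal in rgd2-R.

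Probe 7258 gave log2 ratios of -0.56, -0.44 and -0.74 in replicates 1 to 3 and of -0.45, 0.02 and -0.31 in replicates 4 to 6. Only replicate 5 was not below 0, and 17 of the 18 single readings were. The limma estimate was -0.41 (SE 0.08, n = 6), which is 24.9% less signal in rgd2-R, or 0.751 of the non-mutant signal with a 95% interval of 0.664 to 0.850. Its unadjusted limma p was 0.000852 and its adjusted p over all 19200 spots 0.110. An exact two-sided sign-flip test over the 6 replicates gave p = 0.0625, where the smallest possible is 0.03125. On SAM1, 0% of spots passed at the adjusted threshold, 14.8% had an unadjusted p under 0.05, 8.12% being lower and 6.68% higher in rgd2-R, and 15.3% were below 0 in at least 5 of 6 replicates. A smaller unadjusted p than that of probe 7258 was found for 145 spots, 0.755% of the design.

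The normalized level of probe 7258 in non-mutant RNA was 11.69, 11.42, 11.55, 11.41, 11.06 and 11.16 in replicates 1 to 6, on the log2 intensity scale. In rgd2-R RNA it was 11.13, 10.98, 10.81, 10.96, 11.08 and 10.86. The means were 11.38 ± 0.236 and 10.97 ± 0.123 (SD, n = 6), and the ranges of the genotypes overlapped only where non-mutant replicate 5 lay within the rgd2-R range. Signal was well above background in every reading, with a median of 24.9 times the local background in the non-mutant channel and 17.5 times in the rgd2-R channel.

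Probe 7642 gave log2 ratios of -0.36, -0.64 and -0.64 in replicates 1 to 3 and of -0.10, 0.18 and -0.28 in replicates 4 to 6. Replicate 5 was again the one above 0. It is the SAM1 replicate whose readings correlated least across spots (0.248 to 0.272, against 0.651 to 0.81 in the other replicates). A link between these facts was not tested. With 1 replicate left out, probe 7258 ranged from -0.48 without replicate 5 to -0.36 without replicate 4, and probe 7642 from -0.37 without replicate 5 to -0.25 without replicate 6. The estimate was -0.31 (SE 0.08, 0.808 of the non-mutant signal, 95% interval 0.714 to 0.914), with an unadjusted limma p of 0.00434, an adjusted p of 0.148 and an exact sign-flip p of 0.09375. Its values lay apart by dye orientation, which is also the split of replicates 1 to 3 from 4 to 6. Dye and set of replicates cannot be told apart. With rgd2-R in Cy3 the mean was -0.55, and with rgd2-R in Cy5 it was -0.07, with replicates on both sides of 0. The orientations did not overlap, and the exact permutation p of 0.1 is the smallest that 3 against 3 allows. For probe 7258 the orientation means were -0.58 and -0.25, and its exact p was 0.2. Such a difference goes into the dye term of the model and not into the standard errors.

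The level of probe 7642 in non-mutant RNA was 10.04, 9.71, 10.06, 9.13, 9.17 and 9.15 in replicates 1 to 6, and in rgd2-R RNA 9.67, 9.06, 9.42, 9.02, 9.35 and 8.87. The first 3 non-mutant values, all labelled with Cy5, stood above the other 3, and the genotypes overlapped. The plot of levels by genotype shows the pairs replicate by replicate.

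**Figure D1:**
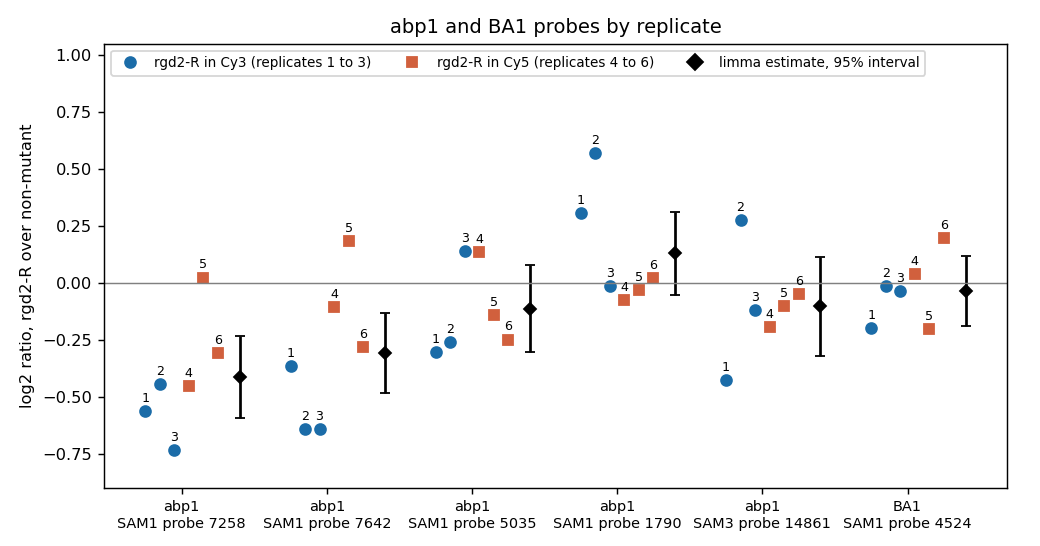
Log2 ratio of rgd2-R over non-mutant for each abp1 and BA1 probe, 1 numbered point per replicate (circles: rgd2-R in Cy3; squares: rgd2-R in Cy5), with the limma estimate and its 95% interval as a diamond. abp1 probes 7258 (-0.41) and 7642 (-0.31) lie below 0 in 5 of 6 replicates, while probe 1790 (0.13) and the BA1 probe (-0.04) scatter on both sides.

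**Figure D2:**
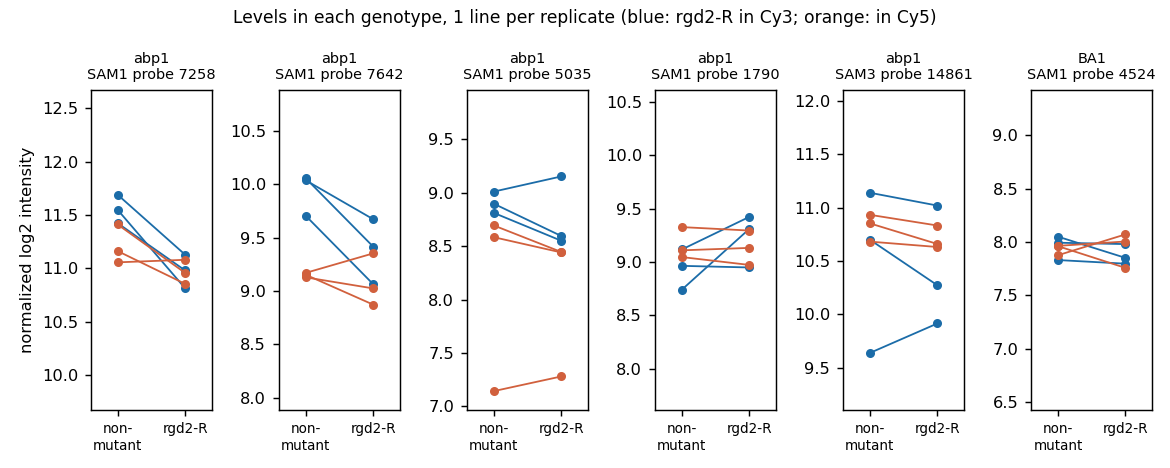
Normalized log2 intensity of each probe in non-mutant and rgd2-R RNA, each line joining the genotypes of 1 replicate; every panel spans the same number of log2 units, and levels are not compared between probes. For probe 7258 the mean is 11.38 in non-mutant and 10.97 in rgd2-R. In replicate 4 probe 5035 lies far below the other replicates in both genotypes, and its signal there was below a high local background.

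For the other 2 SAM1 probes of abp1 the 95% intervals included 0. Probe 5035 gave -0.30, -0.26, 0.14, 0.14, -0.14 and -0.25 in replicates 1 to 6, which is 4 values below 0 and 2 above. Its estimate was -0.11 (SE 0.08, 95% interval -0.30 to 0.08, limma adjusted p = 0.590). In replicate 4 its signal was below the local background in all 3 readings, and its level there was 7.28 in rgd2-R and 7.14 in non-mutant RNA, against 8.44 to 9.15 in the other rgd2-R samples. Without replicate 4 the estimate was -0.17, and with any other replicate left out it ranged from -0.18 without replicate 3 to -0.07 without replicate 1 or 6.

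Probe 1790 gave 0.31, 0.57 and -0.02 in replicates 1 to 3 and -0.07, -0.03 and 0.02 in replicates 4 to 6. The values with rgd2-R in Cy5 were all close to 0, and the mean of 0.29 with rgd2-R in Cy3 came from replicates 1 and 2. Its estimate was 0.13 (SE 0.08, 95% interval -0.05 to 0.31, limma adjusted p = 0.509), and without replicate 2 it was 0.06.

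Within replicates, probe 1790 exceeded probe 7258 by 0.54 ± 0.397 (SD, n = 6) on the log2 ratio scale, in 5 of 6 replicates. The exact sign-flip p was 0.0625, and 0.234 after adjustment over the 10 pairs of SAM1 probes compared. Probe 5035 exceeded probe 7258 by 0.30 ± 0.377 (exact sign-flip p = 0.09375) and probe 7642 by 0.20 ± 0.374 (exact sign-flip p = 0.25). Probes 7258 and 7642 differed by -0.10 ± 0.184 (exact p = 0.25). None of the 10 pairs had an adjusted p below 0.234. Of the 35 SAM1 genes with 4 probes, abp1 had a range of 0.54 between its lowest and highest probe estimate, and 1 of the other 34 had a wider one, their median being 0.174. Estimates of both signs were also found in 27 of those 34, and at least 2 probes with an unadjusted p under 0.05 in 6 of them. Another auxin-binding protein gene, abp4, is on the array, and whether clones of these genes share sequence was not tested.

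Averaged over its 4 SAM1 probes, abp1 gave -0.23, -0.19, -0.31, -0.12, 0.01 and -0.20 in replicates 1 to 6. The estimate was -0.18 (SE 0.05), with an unadjusted limma p of 0.0110 and an adjusted p of 0.200, where 12% of the 583 named SAM1 genes had an unadjusted p under 0.05. The probes were averaged within each replicate before the fit. That SE and p therefore leave out the spread between the 4 probes, whose estimates ran from -0.41 to 0.13. The 5 leaf primordium markers had estimates above 0 with a median log2 ratio of 0.34, and none passed the adjusted threshold. Of the 2 meristem markers, kn1 gave -0.12 (SE 0.08) and lg3 0.17 (SE 0.06). Without replicate 3, 4 of the 5 markers were above 0 with a median of 0.08. The part of tissue makeup in the abp1 value was not tested.

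On SAM3, probe 14861 of abp1 gave -0.43, 0.28, -0.12, -0.19, -0.10 and -0.05 in replicates 1 to 6 as labelled. Replicate 2 alone was above 0. Its estimate was -0.10 (SE 0.09, 95% interval -0.32 to 0.12, limma adjusted p = 0.936), and the exact sign-flip p was 0.34375. At least 5 of 6 replicates were below 0 for 11.2% of SAM3 spots, 6.58% had an unadjusted p under 0.05, 3.59% being lower and 2.99% higher in rgd2-R, and 0% passed after adjustment.

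In replicate 3 the low and mid readings of this probe were -0.25 and -0.36 and the high reading 0.24. With the dyes exchanged in the low and mid readings, these became 0.25 and 0.36. Replicate 3 then became 0.28 and the estimate -0.04 (SE 0.11, limma adjusted p = 0.931). With replicate 2 turned as well it was -0.13 (SE 0.10). Without replicate 2 the labelled estimate was -0.19 (limma adjusted p = 0.958, with an unadjusted p of 0.0348), and without replicate 1 it was -0.02. The abp1 mean on SAM1 and the SAM3 probe differed by -0.07 (exact permutation p = 0.517), and by -0.14 with the replicate 3 readings exchanged (exact permutation p = 0.277).

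Level and signal of probe 14861 varied more between replicates than between genotypes. Non-mutant levels were 10.70, 9.64, 11.14, 10.85, 10.93 and 10.68 in replicates 1 to 6, and rgd2-R levels 10.27, 9.91, 11.02, 10.66, 10.83 and 10.63. Replicate 2 was the lowest in both genotypes, and the genotypes overlapped over most of their range. All 18 readings were above background in both dyes.

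BA1 was close to the detection limit. Its signal reached 1.5 times the local background in 3 of 18 Cy3 readings and 11 of 18 Cy5 readings, with a median of 1.24 times in the rgd2-R channel and 1.47 times in the non-mutant channel. A plot of signal over background shows this for every reading.

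**Figure D3:**
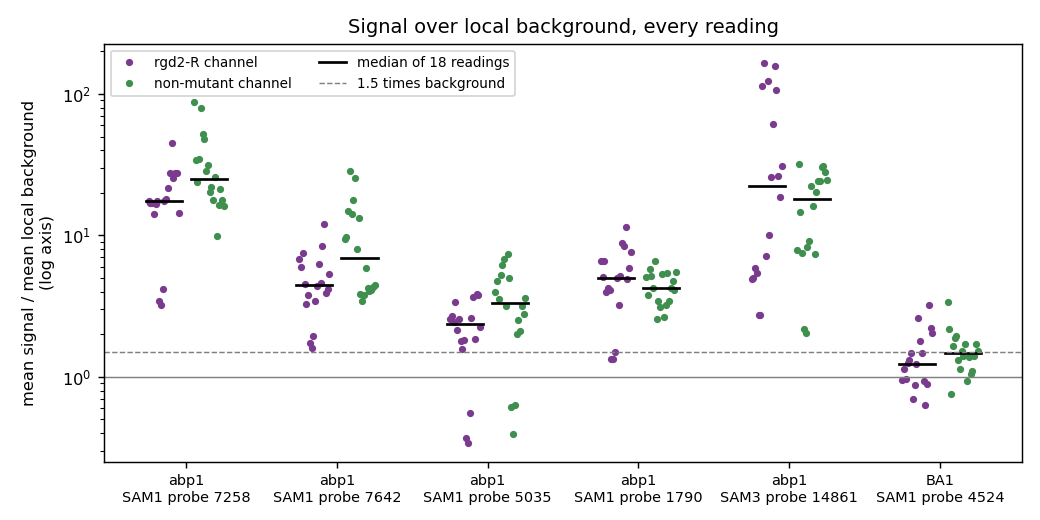
Mean signal divided by mean local background (log axis) in each of 18 readings per probe and genotype channel, with the median as a black bar and the 1.5-fold line dashed. Most BA1 readings lie near or under the line, and the abp1 probes lie above it except for the 3 readings of replicate 4 at probe 5035 and 2 Cy3 readings at probe 1790.

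The BA1 probe 4524 gave log2 ratios of -0.20, -0.01, -0.03, 0.04, -0.20 and 0.20 in replicates 1 to 6, with 4 values below 0 and 2 above. The estimate was -0.04 (SE 0.07, 95% interval -0.19 to 0.12), with an unadjusted limma p of 0.608 and an adjusted p of 0.869. On a fold scale the interval ran from 0.876 to 1.09. A ratio between signals so near background is drawn towards 0 by the offset used in background correction, so that interval does not limit the change in BA1 RNA. The levels were 7.91 ± 0.126 in rgd2-R and 7.95 ± 0.0797 in non-mutant RNA (SD, n = 6) and overlapped.

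Under the other processing settings, probes 7258 and 7642 stayed below 0 and probe 1790 above 0. Probe 5035 and BA1 changed sign under some of them, and no probe passed the adjusted threshold under any setting run.

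**Figure D4:**
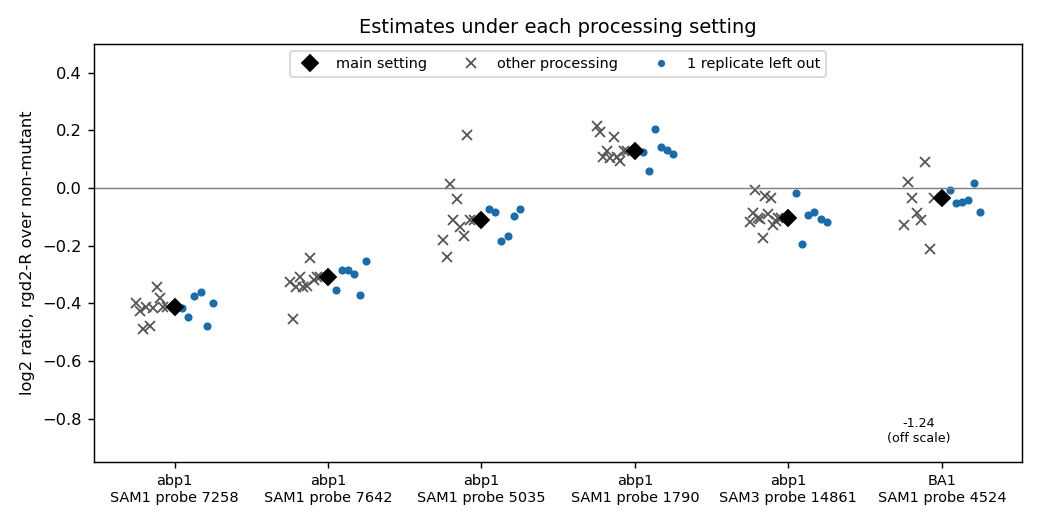
Estimated log2 ratio of each probe under the main setting (diamond), under other processing (crosses) and with 1 replicate left out (dots). Probe 7258 runs from -0.49 to -0.34 and probe 7642 from -0.45 to -0.24, while BA1 runs from -1.24 with plain background subtraction, printed off scale, to 0.09.

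The auxin list on SAM1 held abp1, abp4, aux1, which encodes an auxin import carrier, NIT1, a nitrilase gene, and BA1, listed as a gene downstream of auxin transport. All 5 had estimates below 0, with a median log2 ratio of -0.05, where the median of all 583 named genes was 0.00 and 48.9% were below 0. With median centring in place of loess 4 of the 5 were below 0, as from the mid reading or without any 1 of replicates 2, 5 and 6, and from the high reading 3 were. None passed the adjusted threshold, and in the main setting abp1 alone had an unadjusted limma p under 0.05. No listed gene had one without background correction, with plain subtraction or median centring, from the mid or high reading, or in the authors' values. In those settings the abp1 mean had an unadjusted limma p of 0.0507 to 0.327. NIT1 gave -0.08 (SE 0.07), aux1 -0.05 (SE 0.06) and abp4 -0.05 (SE 0.09), each within 2 standard errors of 0. On SAM3, abp1 was the only gene of the list.

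Of 8 genes for axillary and inflorescence meristems on SAM1, 5 had estimates above 0 and 3 below, with a median of 0.05, and none passed. lg3, a KNOX homeobox gene, gave 0.17 (SE 0.06, limma adjusted p = 0.244) and was higher in 6 of 6 replicates. The share of all spots higher in 6 of 6 was not counted. TE1, an RNA-binding protein gene of leaf initiation, gave 0.15 (SE 0.08), ra3, a trehalose phosphatase gene of branch determinacy, gave 0.08 (SE 0.06), and tb1, a TCP factor that represses axillary outgrowth, gave 0.07 (SE 0.07). kn1, which maintains the meristem, gave -0.12 (SE 0.08). On SAM3 only 3 of the list were named, and lg3 gave 0.00 (SE 0.10) as labelled and -0.23 with the replicate 3 readings exchanged.

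Of 10 genes for endoplasmic reticulum lumen proteins on SAM1, 5 were above 0 and 5 below, with a median of 0.01, and none passed. An unadjusted limma p under 0.05 was found for 3, 2 higher and 1 lower, against 12% of the 583 named genes. Under the other settings 0 to 3 had one. bip1, an HSP70 chaperone of that lumen, gave 0.22 (SE 0.07, limma adjusted p = 0.254) and PDIL5-1, of the protein disulfide isomerase family, gave 0.22 (SE 0.09, adjusted p = 0.344). pdi3, of the same family, gave -0.15 (SE 0.06, limma adjusted p = 0.299) and was lower in 6 of 6 replicates. Of all SAM1 spots, 15.3% were below 0 in at least 5 of 6. The isomerase family genes pdi11 and pdi gave -0.11 (SE 0.06) and -0.09 (SE 0.07), and CNX, a calnexin gene, gave 0.05 (SE 0.05). On SAM3, 5 of 11 such genes were above 0 as labelled and 7 with the readings exchanged. In both cases none had an unadjusted limma p under 0.05, against 5.69% of the 598 named SAM3 genes as labelled. With replicate 2 turned as well, 3 of the 11 had one, where 2664 of 16000 spots did. With its dye turned too, a setting chosen after seeing the data, 4 had one, where 4024 spots did.

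**Figure D5:**
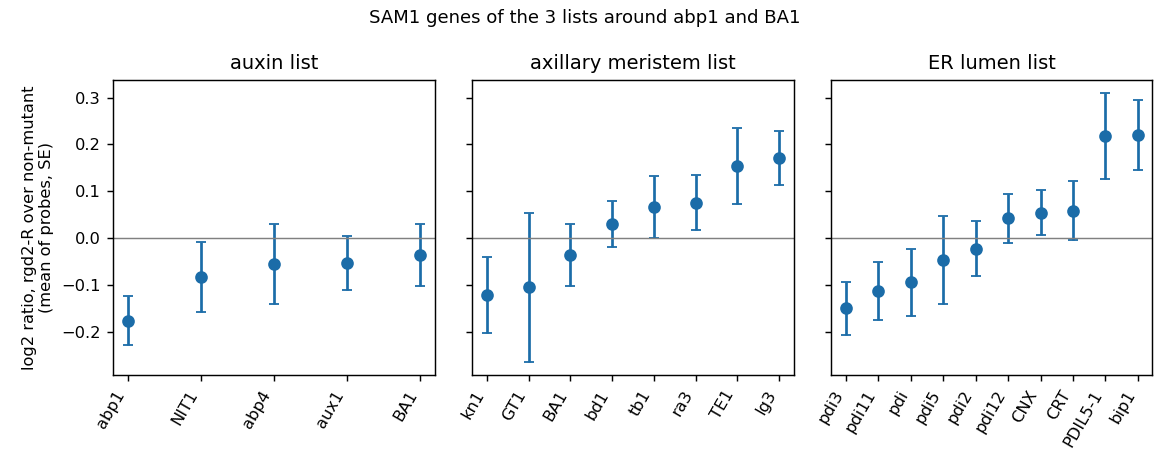
SAM1 log2 ratio of rgd2-R over non-mutant, as the mean over each gene's probes with its limma SE, for the auxin, axillary meristem and endoplasmic reticulum (ER) lumen lists. All 5 auxin genes, abp1 and BA1 among them, lie below 0 in this setting (3 or 4 of them under some others). abp1 is lowest at -0.18, and the rest of the 5 lie within 2 SE of 0. The other lists spread to both sides, from -0.15 for pdi3 to 0.22 for bip1.

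Across the 6 SAM1 replicates, the named genes most like the abp1 mean were CCamK, a calcium and calmodulin dependent kinase gene (Pearson r = 0.96), LOC541622 (0.918), lip15, a bZIP factor gene (0.907), and pglcat6 (0.907), of 582 compared. For BA1 they were dzs18, a zein gene (0.967), RPL10, a ribosomal protein gene (0.963), gl8, a gene of wax synthesis (0.952), and mha4, a plasma membrane proton pump gene (0.909). For abp1 on SAM3, as labelled only, they were phi1 (0.885), gst18 (0.876), arpp3 (0.855) and magi50422 (0.849) of 597. These values share arrays and dye orientation, rest on 6 points each and are the highest among all genes compared, so they are a description. Of these genes on SAM1, lip15 gave -0.28 (SE 0.07) and CCamK -0.03 (SE 0.06).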

How the data were processed

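Per the file headers, each deposited intensity is a scanner reading of spot signal or of the background around it in 1 dye, before any correction. A processed natural log ratio was deposited beside it, which runs as non-mutant over rgd2-R by the labels' dyes and served as an alternative. The background correction and normalization behind it are not given in the sources read. Mean signal and background were corrected with normexp (offset 50), normalized by loess within arrays, turned to log2 of rgd2-R over non-mutant and averaged over the 3 readings of a replicate, in limma 3.58.1 under R 4.3.3. Genotype and dye terms were fitted with lmFit and eBayes (4 residual degrees of freedom) on all spots of a design, with Benjamini-Hochberg adjustment and a threshold of 0.05. Levels were scaled between arrays by Aquantile. The files give no background SD, so a spot counted as above background at 1.5 times its local mean. All p-values are two-sided. The number of arrays limits the precision. The labels call the replicates biological without naming plants, so p-values measure the spread between these samples.

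Probes were named by the platform annotation, with symbols brought up to date by gene identifier. A single gene was given for 1800 SAM1 probes, several for 23 and none for 17377, and for SAM3 these were 1159, 1 and 14840. Of 583 named genes on SAM1, 562 had a current entry, and of 598 on SAM3, 580 had. The named genes are all abp1 and BA1 probes, the 4 genes most like each in pattern, and up to 6 genes per list with the smallest p. Lists were matched to symbols and synonyms only, since no descriptions were at hand, and 4 matches of another class were taken out. Members and lists were chosen with earlier results of these data known. On simulated data with 200 changed spots and independent noise at each spot, 97% of 2-fold and 99% of 4-fold changes were recovered among 19200 SAM1 spots. Among 16000 SAM3 spots they were 89% and 100%, with 16 false calls in each design. Changes under 2-fold, as all abp1 and BA1 estimates of the main setting are, were not simulated, so recovery of changes of that size is unknown. Alternatives covered background correction, normalization, single readings, the authors' values, a filter on dim spots, the dye term, SAM3 direction and each replicate left out.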

Additional observations from a re-analysis of the deposited data

Results flagged for a closer look

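The non-mutant level of abp1 probe 5035 on SAM1 was 7.14 in replicate 4, far below the other 5 replicates for the spread of the group (8.58 to 9.01). The rgd2-R level of that replicate was 7.28, and its signal was below the local background in all 3 readings. That background was high: in the low, mid and high readings it was 592, 1453 and 1187 in Cy3. The median backgrounds of that array were 154, 294 and 378. The Cy3 signal of the spot was 362, 571 and 756. The non-mutant level of abp1 probe 14861 on SAM3 was 9.64 in replicate 2, where the other 5 lay between 10.68 and 11.14. The rgd2-R level there was 9.91. Of 18 groups of 6 values examined in this way, 2 stood out, and chance alone picks about 1 in 20.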

How the results depend on the processing

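No abp1 or BA1 probe passed the adjusted threshold under any setting run. Probe 7258 ranged from -0.49 to -0.34 (limma adjusted p 0.0640 to 0.532), probe 7642 from -0.45 to -0.24, probe 1790 from 0.06 to 0.21, the abp1 mean from -0.23 to -0.11 and probe 14861 from -0.19 to -0.01. The unadjusted limma p of the abp1 mean ran from 0.0110 to 0.327. BA1 was 0.0207 with median centring in place of loess, 0.0921 from the high reading, and -1.24 with plain subtraction (SE 0.98), and it was among the dimmest 25% left out. With 1 replicate left out it ranged from -0.0817 to 0.018 (0.018 without replicate 5). Probe 5035 was 0.0151 with median centring and 0.18 in the authors' values. The cause of these changes of sign was not tested. The count of SAM1 spots called, 0 in the main setting (2842 at an unadjusted p under 0.05), was 195 without background correction, 11 with median centring, 36 from the mid reading, 1 from the authors' values, 42 without the dimmest 25% of spots, and 0 to 2 with 1 replicate left out (2 without replicate 2). At an unadjusted p under 0.05, SAM1 counts fell to 1579 with median centring, 1746 with plain subtraction and 1848 without replicate 6. Median centring gave 426 higher and 1153 lower SAM1 spots against 1283 and 1559, and 602 and 340 SAM3 spots against 479 and 574. The SAM3 count, also 0 (1053 unadjusted), was 2 with the replicate 3 readings exchanged and replicate 2 turned, and 248 with its dye turned too, a setting chosen after seeing the data. It was 0 to 0 with 1 replicate left out. At an unadjusted p under 0.05, SAM3 counts were 636 from the mid reading, 1619 without replicate 1, 2664 with replicate 2 turned and 4024 with its dye turned too. Each ratio already pairs the genotypes of a replicate on 1 array. With the replicate number as a block between designs, which the labels do not say share RNA, the abp1 difference of -0.0736 between SAM1 and SAM3 had an exact sign-flip p of 0.5625, a setting also chosen after seeing the data. BA1 lies too near background for its ratio to limit a change in its RNA.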
